A study of Homo sapiens with 6 samples.

Results

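The mitochondrial, or intrinsic, pathway of apoptosis is governed by the BCL2 family, and the mRNA levels of 10 of its members were compared between cells given sorafenib and cells given vehicle. The members were taken by gene symbol: the pro-survival genes MCL1, BCL2 and BCL2L1, the effectors BAX and BAK1, and the BH3-only genes BCL2L11, PMAIP1, BBC3, BID and BAD. All 10 symbols were present among the 34690 symbols measured, and 9 of them were among the 14641 symbols tested. BAD did not pass the detection threshold on any array and was not tested.

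Illumina BeadChip arrays were used to profile samples whose labels name SNU761, a line of human hepatocellular carcinoma cells. All 6 carry that label, but both arrays numbered 3 expressed other genes than the rest, so that the identity of their cells is in doubt. Control cells received DMSO for 24 h, and treated cells received sorafenib, an inhibitor of RAF kinases and of several receptor tyrosine kinases, for 24 h. The labels print the dose as 3 mM, a concentration far above those usual in culture, so its unit is uncertain. Each group held 3 arrays, numbered 1 to 3. The labels do not say whether these were separate cultures, so p-values cover only the spread between these samples, which may be technical. The sorafenib and control arrays of the same number were compared as a pair.

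Proteins of this family decide whether the outer mitochondrial membrane is opened. BAX and BAK1 form the pores through which cytochrome c escapes, and BCL2, BCL-XL (the main product of BCL2L1) and MCL1 hold them in check. BH3-only proteins, among them BIM (BCL2L11), NOXA (PMAIP1), PUMA (BBC3), BID and BAD, bind the pro-survival proteins or activate the effectors, each with its own set of partners. NOXA binds chiefly MCL1, a short-lived protein whose amount depends on continued translation and on proteasomal turnover. ERK signalling, which lies below RAF, marks BIM for degradation and restrains transcription of its gene. The arrays measured mRNA alone, so protein amount, phosphorylation and splicing are outside these values.

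The arrays numbered 3 stood apart from the others before any treatment effect. Across the tested symbols, Pearson's r was 0.793 to 0.833 between an array numbered 3 and the other 4, and 0.932 to 0.984 among those 4. Of 15 liver cell markers, 13 to 14 were detected on the arrays numbered 1 and 2 and 8 on each array numbered 3. The log2 signal of the apolipoprotein gene APOA2 was 14.44 to 15.69 on the former and 5.44 and 5.31, not above background, on control and sorafenib array 3. That of albumin, ALB, went the other way, from 8.97 to 9.88 on the former to 14.42 and 14.05. Fibroblast and stellate cell markers had a summed normalized signal of 718 to 1152 on the arrays numbered 1 and 2, and of 11016 and 9592 on control and sorafenib array 3, where 9 and 7 of the 10 were detected against 5 on each of the others. Blood cell markers summed to 1943 to 2645 on the arrays numbered 1 and 2 and to 19536 and 25812 on array 3, with RAC2 at a log2 signal of 14.02 and 14.51 there and 5.04 to 5.54 elsewhere. The pan-leukocyte marker PTPRC was not detected on any array, and 4 to 6 of the 13 blood markers were detected per array. Endothelial markers summed to 445 to 876 on the arrays numbered 1 and 2 and to 214 and 210 on array 3, with 1 and 0 of 6 detected.

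Marker levels were also compared between treatments. The 5 tested fibroblast markers had a median difference of −0.64 with sorafenib, 3 of them lower in all pairs, and their list summed to 1093 to 11016 in control and 718 to 9592 in sorafenib. Of the 14 tested liver markers 7 were lower and 1 was higher in all pairs, with a median of −0.07 and sums of 45992 to 229785 in control and 43381 to 224319 in sorafenib. The 1 tested endothelial marker, PECAM1, differed by −0.56 on average and by −0.79, −0.93 and 0.03 in pairs 1, 2 and 3. Neither array numbered 3 detected it. The 5 tested blood markers had a median of −0.14. None of the marker genes passed in the paired fit described below. There limma gave 2 of 5 fibroblast, 4 of 14 liver, 0 of 5 blood and 1 of 1 endothelial markers an unadjusted p under 0.05. Over all tested symbols this share was 19%. The part of these differences in the results below was not tested. Each result is therefore also given by pair. In RNA from whole cultures, fewer cells of a type and less RNA per cell cannot be told apart.

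No member of the family passed the test for a difference after sorafenib. PMAIP1, which encodes the BH3-only protein NOXA, had the largest mean difference, 0.92 ± 0.80 log2 units higher with sorafenib (SD, n = 3 pairs), or 1.89-fold. It was 2.25-fold higher in pair 2 and 2.95-fold higher in pair 3, and 1.02-fold in pair 1. BBC3, encoding PUMA, was 1.26-fold higher on average and BID 1.29-fold lower. MCL1, whose protein is a partner of NOXA, differed by 0.054 ± 0.43.

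The test was limma's moderated test with the replicate number as a block, adjusted with Benjamini-Hochberg over all tested symbols at a threshold of 0.05 (called the paired fit below). It called 0 of 9 members and 0 of 14641 symbols (0% called), with 1 member and 2776 symbols (19%) at an unadjusted p under 0.05. A trended paired fit, which lets the variance follow the signal level and is robust to outlying variances, called 141 symbols (0.963%) and 0 members. That count was 38 without pair 1, 1 without pair 2, 1283 without pair 3 and 0 when all symbols entered the background estimate, with 0 members called each time. The mean differences of the 9 members had a median of 0.054, against −0.00065 over all tested symbols. In all 3 pairs, 3 of 9 members differed in 1 direction, against 43.7% of tested symbols; PMAIP1 and BBC3 were higher (21.5% of symbols) and BCL2L1 was lower (22.2%). With median scaling in place of quantile normalization these 3 kept their direction and BAX, BAK1 and BID were also lower in all pairs, 6 of 9 members in all. The share of all symbols was not computed for that setting, where the median over all tested symbols was −0.039. BID in pair 2 was then lower by only −0.0038. With quantile normalization, for 0 of 9 members did the sorafenib arrays lie fully apart from the control arrays, which held for 6.47% of symbols.

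**Figure D1:**
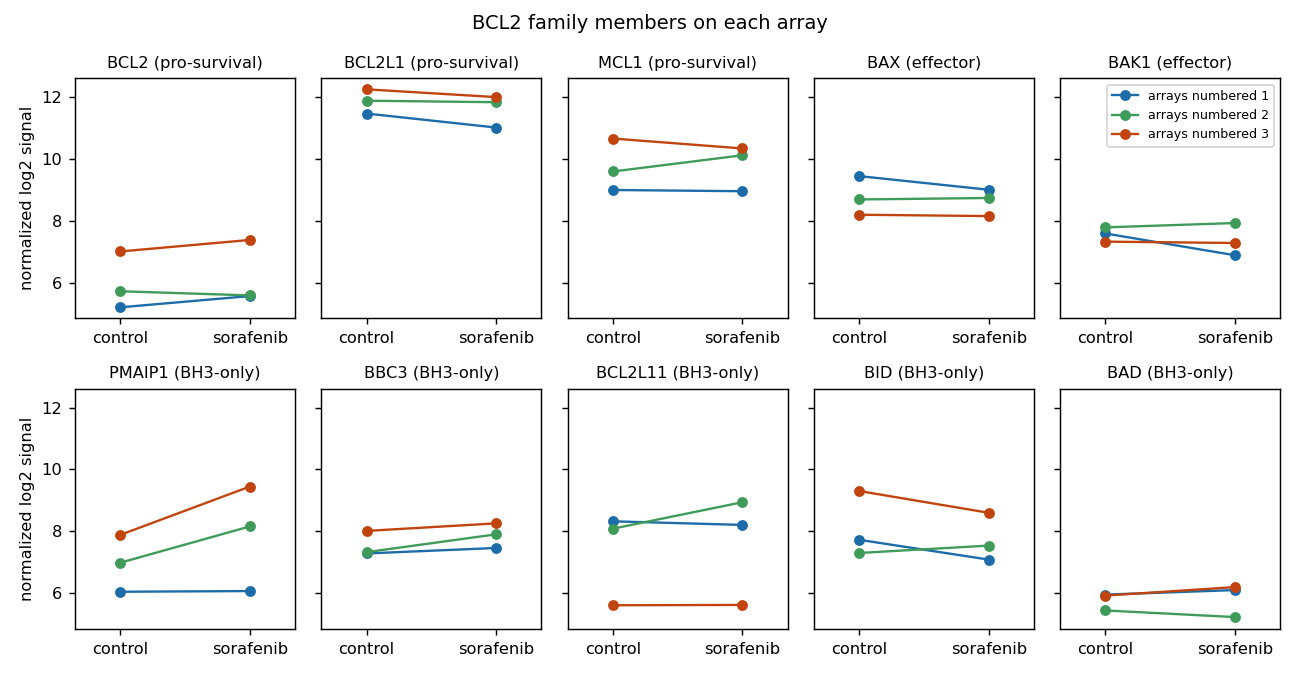
Normalized log2 signal (y axis) of each BCL2 family member on the control and sorafenib arrays (x axis), with 1 line per array number. PMAIP1 climbs along the lines numbered 2 and 3 and is flat along the line numbered 1, while for most other members the lines are further apart from each other than their ends are.

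Among the pro-survival genes, BCL2L1 was the only one of the 3 that differed in 1 direction in all pairs. Its normalized log2 signal was 11.46, 11.88 and 12.24 on control arrays 1, 2 and 3, and 11.01, 11.83 and 11.99 on the sorafenib arrays. Every sorafenib array was below its own control, but the groups overlapped. The mean difference was −0.25 ± 0.20 (95% confidence interval −0.65 to 0.15; adjusted p = 0.452, limma), and the pair differences were −0.45, −0.05 and −0.25.

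MCL1 encodes the short-lived pro-survival protein of the family. Its log2 signal was 8.99, 9.59 and 10.65 in control and 8.95, 10.11 and 10.33 with sorafenib. The pairs disagreed: MCL1 was level in pair 1 (−0.04), higher with sorafenib in pair 2 (0.52) and lower in pair 3 (−0.32). The interval of the mean difference ran from −0.44 to 0.55 (adjusted p = 0.902, limma), so changes within it in either direction were not excluded. The sign of its mean was set by pair 2, without which it was −0.18; it was also −0.0056 when all symbols entered the background estimate.

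BCL2, the founding member of the family, was near background on the arrays numbered 1 and 2. Its deposited signal was 115, 174 and 254 intensity units on the control arrays and 129, 163 and 280 on the sorafenib arrays, and control array 1 did not detect it. On the normalized log2 scale it was 5.21, 5.72 and 7.01 in control and 5.57, 5.59 and 7.38 with sorafenib. The highest value in each group was that of the array numbered 3. The mean difference was 0.20 ± 0.29 (adjusted p = 0.571, limma), with pair 2 lower and pairs 1 and 3 higher.

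The pore-forming effectors showed small differences that came mostly from pair 1. BAX had log2 signals of 9.44, 8.69 and 8.19 in control and 9.0, 8.73 and 8.15 with sorafenib. Pair 1 differed by −0.44 and the other pairs by 0.05 and −0.04, a mean of −0.15 ± 0.26 (adjusted p = 0.676, limma). BAK1 had log2 signals of 7.59, 7.79 and 7.33 in control and 6.89, 7.93 and 7.28 with sorafenib. Sorafenib array 1 held the lowest value of BAK1, 0.70 below its control, and the mean difference was −0.20 ± 0.44 (adjusted p = 0.626, limma). Without pair 1 the means of both effectors crossed 0, to 0.0021 for BAX and 0.048 for BAK1.

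**Figure D2:**
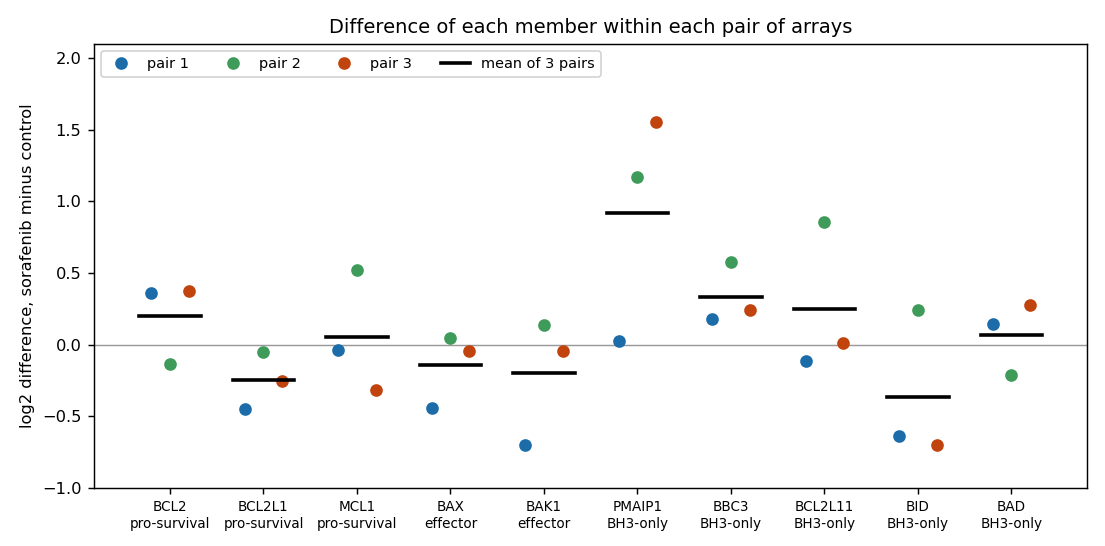
Log2 difference of sorafenib minus control (y axis) for each member within each pair of arrays (points) and the mean of the 3 pairs (bars). The points of PMAIP1 run from 0.02 to 1.56, and those of 6 of the 9 tested members lie on both sides of 0 (3 of 9 with median scaling).

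The BH3-only genes held both the largest difference upward and the largest downward among the members. Of the 4 tested, PMAIP1, BBC3 and BCL2L11 were higher on average with sorafenib and BID was lower. PMAIP1 is a known transcriptional target of p53 and of the ATF4 arm of the integrated stress response. Its deposited signal was 161, 253 and 367 intensity units on control arrays 1, 2 and 3, and 158, 353 and 795 on the sorafenib arrays. On the normalized log2 scale it was 6.05, 6.99 and 7.89 in control and 6.08, 8.16 and 9.45 with sorafenib. Both arrays numbered 1 were the lowest of their group and alike, whereas sorafenib arrays 2 and 3 were above every control array. PMAIP1 was detected on both arrays numbered 1, but near their background means of 117 in control and 112 with sorafenib (SD 21.1 and 20.1). The flat pair 1 is therefore less certain.

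The paired fit gave PMAIP1 an unadjusted p of 0.0192 and an adjusted p of 0.191 (limma), with a 95% confidence interval of 0.20 to 1.63 for the mean difference. The trended paired fit gave an adjusted p of 0.148. Only 3.14% of tested symbols had a larger absolute mean difference. Its size moved with the pairs used and with the background correction. It was 1.36 without pair 1 and 0.60 without pair 3. It was 0.62 without background correction and 0.17 when all symbols entered the background estimate (adjusted p = 0.521, limma), an estimate whose SD was 604 to 837 intensity units per array against 20.1 to 31.8 in the main setting.

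The upstream sequence of PMAIP1 and that of BCL2L11, described below, are shown because the first had the largest difference with sorafenib and the second the largest difference between array numbers. Both are RefSeq windows of 250 bases that end just before the annotated gene start, on the plus strand of GRCh38.p14, at chr18:59899746-59899995 for PMAIP1 and chr2:111120664-111120913 for BCL2L11. Capitals mark a match, on either strand, to TGACGT, the core of the cyclic AMP response element bound by factors of the CREB and ATF family, in PMAIP1, and to GTAAACA, a forkhead core of the kind bound by FOXO factors, in BCL2L11.
PMAIP1: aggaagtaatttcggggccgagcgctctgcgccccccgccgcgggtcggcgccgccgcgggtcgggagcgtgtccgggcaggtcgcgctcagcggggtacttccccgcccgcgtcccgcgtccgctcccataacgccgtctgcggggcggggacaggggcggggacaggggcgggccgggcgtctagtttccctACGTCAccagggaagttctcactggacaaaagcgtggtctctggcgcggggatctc
BCL2L11: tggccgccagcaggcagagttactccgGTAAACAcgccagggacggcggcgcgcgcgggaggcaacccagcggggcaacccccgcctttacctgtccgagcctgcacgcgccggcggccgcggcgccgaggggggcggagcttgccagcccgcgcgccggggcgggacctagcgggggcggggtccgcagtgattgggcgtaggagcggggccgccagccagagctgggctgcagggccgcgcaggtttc

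The match in PMAIP1 reads ACGTCA, the reverse complement of the searched core, and lies 56 to 51 bases before the start. The match in BCL2L11 lies 223 to 217 bases before it. TGACGT was found in 7.1% of 35116 such windows and GTAAACA in 2.98%. Of the 9 members with a window in the table, BAD also held TGACGT and no other held GTAAACA. These matches describe letters only, and binding was not measured.

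BBC3 encodes PUMA, which binds all the main pro-survival proteins and is, like PMAIP1, a target of p53. Its log2 signal was 7.29, 7.33 and 8.02 on the control arrays and 7.47, 7.91 and 8.26 on the sorafenib arrays. Each sorafenib array exceeded its own control, by 0.18, 0.57 and 0.24, but control array 3 exceeded sorafenib arrays 1 and 2. The mean difference of 0.33 ± 0.21 did not pass (adjusted p = 0.338, limma), with an interval from −0.07 to 0.73. When all symbols entered the background estimate it was 0.04, and without background correction 0.20.

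BCL2L11 encodes BIM, the BH3-only protein that ERK signalling holds down. Its log2 signal was 8.33, 8.09 and 5.62 on control arrays 1, 2 and 3, and 8.21, 8.94 and 5.63 on the sorafenib arrays. It was detected on every array numbered 1 or 2 and on neither array numbered 3, so that the difference of 0.01 in pair 3 lies between values not above background. The difference was −0.12 in pair 1 and 0.85 in pair 2, and the mean of 0.25 ± 0.53 did not pass (adjusted p = 0.579, limma). Without pair 2 the mean was −0.053.

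BID, which links death receptors to mitochondria once caspases have cut it, had log2 signals of 7.73, 7.31 and 9.31 in control and 7.09, 7.54 and 8.60 with sorafenib. It was lower with sorafenib in pair 1 (−0.64) and pair 3 (−0.70) and higher in pair 2 (0.24). The mean difference was −0.37 ± 0.53 (adjusted p = 0.42, limma). It moved from −0.67 without pair 2 to −0.20 without pair 3, and was −0.08 when all symbols entered the background estimate. BAD, a BH3-only protein inactivated by survival signalling through phosphorylation, had detection p-values of 0.419 to 0.777 over the 6 arrays. Its log2 signal lay between 5.24 and 6.20, and a low amount of RNA could be hidden at such a signal. BAD did not behave as a single probe, so its detection p-values need not match its signal. On control array 1 it had 155 intensity units at a detection p of 0.777, while the single-probe BCL2A1 had 149 units at 0.035.

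**Figure D3:**
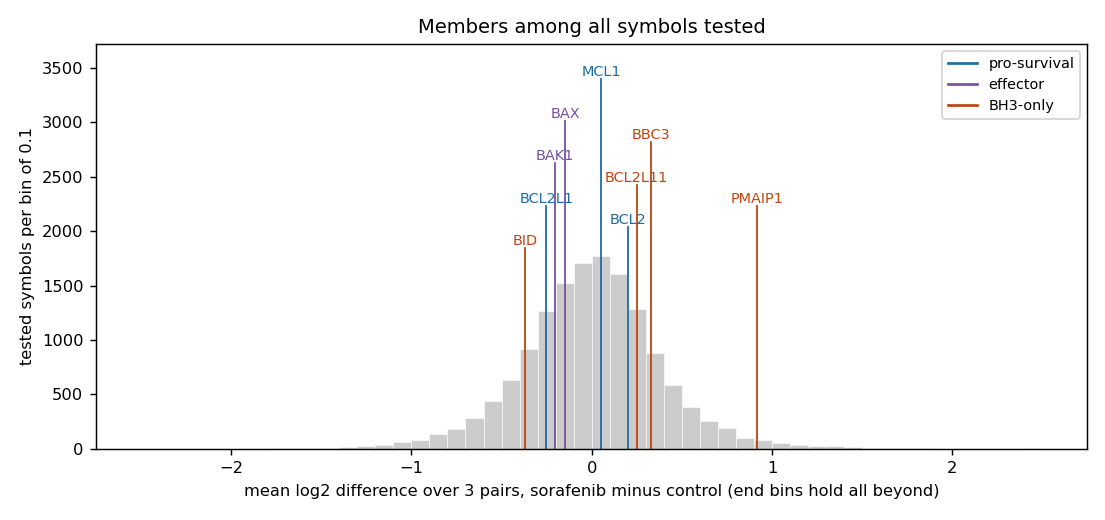
Number of tested symbols (y axis) by mean log2 difference over 3 pairs (x axis), with the 9 tested members marked by coloured lines whose heights only separate the names. Of the members only PMAIP1, at 0.92, lies in a tail of the distribution, and the other 8 lie between −0.37 and 0.33.

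A mean difference of at least 1.5-fold was found for 1 of 9 members, PMAIP1, against 11.7% of tested symbols. With quantile normalization, the pairs differed in how the family moved. In pair 1, 6 of 9 members were lower with sorafenib, with differences from −0.70 to 0.36. In pair 2, 7 of 9 were higher, and the 2 lower ones were BCL2 and BCL2L1. In pair 3, 4 of 9 were higher, with differences from −0.70 to 1.56. Over all tested symbols 50%, 50.2% and 49.3% were higher in pairs 1, 2 and 3. The contrast between pairs changed with median scaling. BAX, BAK1 and BID were then also lower in pair 2, at −0.18, −0.10 and −0.0038. MCL1 was then higher in pair 1, at 0.039. When the pair numbered 3 was left out, the paired fit called 271 symbols (1.85%), and again 0 members.

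Levels of most members differed more between array numbers than between treatments. Averaged over control and sorafenib, 5 of the 9 tested members differed by at least 1 log2 unit between the array numbered 3 and the mean of those numbered 1 and 2, against 31.9% of tested symbols. BCL2L11 was lower on array 3, with differences of −2.59 in control and −2.95 with sorafenib, but its array 3 signals were not above background, so that these sizes are only bounds. PMAIP1 was higher on array 3 by 1.37 in control and 2.33 with sorafenib, and BCL2 by 1.54 and 1.80. BID was higher by 1.79 and 1.29, and MCL1 by 1.36 and 0.80. BAX was lower on array 3 by −0.87 in control and −0.72 with sorafenib, while BCL2L1 was higher by 0.57 in each group. BBC3 was higher by 0.71 and 0.57. BAK1 differed by −0.36 in control and −0.12 with sorafenib, the latter smaller than its mean treatment difference of −0.20. These are descriptions of 1 array against 2 in each group and were not tested. The mean of arrays 1 and 2 hides differences between those 2. BAX was 9.44, 8.69 and 8.19 on control arrays 1, 2 and 3, and PMAIP1 6.08, 8.16 and 9.45 on the sorafenib arrays. For BCL2L11, control arrays 1 and 2 were close, at 8.33 and 8.09, against 5.62 on array 3.

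**Figure D4:**
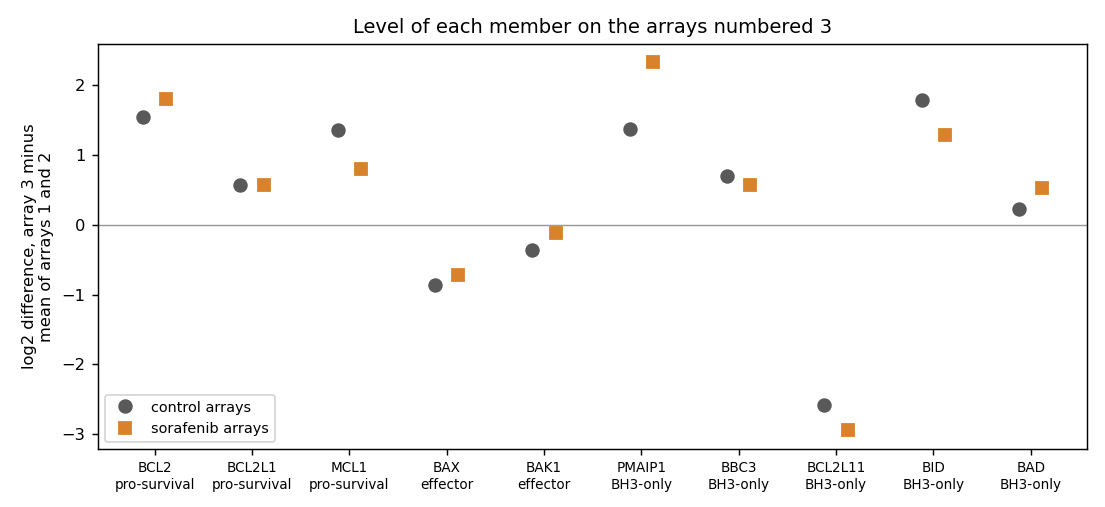
Log2 difference (y axis) of the array numbered 3 minus the mean of the arrays numbered 1 and 2, within control (circles) and within sorafenib (squares), for each member (x axis). BCL2L11 lies below −2.5 in both groups, and BCL2, PMAIP1 and BID lie above 1 in both.

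The 3 tested symbols whose pair differences were nearest to those of PMAIP1, by Euclidean distance over the 3 pairs, were PHF17, HS.493947 and SNORD25. PHF17 differed by 0.13, 1.29 and 1.47 in pairs 1, 2 and 3, a distance of 0.18 log2 units. HS.493947, an unnamed transcript cluster, and SNORD25, a small nucleolar RNA, lay at 0.19 and 0.25 and were slightly lower in pair 1, at −0.03 and −0.15. The likeness rests on 3 pairs.

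Transcription factors that act on BH3-only genes were examined beside the members. DDIT3, the stress factor CHOP, had log2 signals of 10.65, 9.59 and 8.31 in control and 12.42, 12.62 and 11.64 with sorafenib, and was higher in every pair. Its mean difference was 2.71 ± 0.83 (adjusted p = 0.1 in the paired fit and 0.02 in the trended paired fit, limma). The trended call held without pair 1 or pair 3; the adjusted p was 0.0874 without pair 2 and 0.0757 when all symbols entered the background estimate. ATF4 was higher by 0.24, 0.34 and 0.93 in pairs 1, 2 and 3 (adjusted p = 0.238 in the paired fit, limma). Of the 6 tested factors in this list, these 2 were higher in all pairs and 0 were lower, with a list median of 0.25. FOXO3 and TP73 missed the detection threshold and were not tested. TP73 lay near background, but FOXO3 had log2 signals of 10.07, 10.04 and 10.25 in control. Its signals were 10.25, 10.38 and 10.72 with sorafenib, higher in each pair. Here and in the lists below, counts stand against 21.5% of tested symbols higher and 22.2% lower in all pairs.

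Among the remaining family members, BNIP1 had the largest difference. BNIP1 carries a BH3-like segment and also serves as a SNARE protein of the endoplasmic reticulum. Its log2 signal was 9.08, 8.66 and 6.88 in control and 9.91, 10.48 and 8.34 with sorafenib, higher in every pair though the groups overlapped. The mean difference was 1.37 ± 0.50, or 2.58-fold (adjusted p = 0.1 in the paired fit and 0.0405 in the trended paired fit, limma). Of the 12 other BH3-only and pro-death genes listed, 7 were tested. In every pair 3 of these were higher and 1 was lower. HRK, a BH3-only gene best known from neurons, was higher by 0.15, 0.05 and 1.65, but neither array numbered 2 detected it, so that its pair 2 difference lies between values not above background. BCL2L13, an outer membrane protein of the family, differed by 0.34 ± 0.26 and BOK, a BAX-like effector, by −0.27 ± 0.18. Of the 3 other pro-survival genes 2 were tested, BCL2A1 and BCL2L2, and each went both ways.

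Downstream of the mitochondrial pore, CYCS, which encodes cytochrome c, had the largest difference of any gene on these lists except DDIT3. Its log2 signal was 8.04, 7.73 and 8.32 on the control arrays and 6.79, 6.35 and 5.80 on the sorafenib arrays. All sorafenib arrays lay below all control arrays, and sorafenib array 3 did not detect the transcript. The mean difference was −1.71 ± 0.70, or 3.28-fold lower (adjusted p = 0.1 in the paired fit and 0.0405 in the trended paired fit, limma). CYCS has near-identical processed pseudogenes, whose signal may not be separate.

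The trended calls of CYCS and BNIP1 depended on the arrays and on the background estimate. Without pair 3 their adjusted p-values were 0.00375 and 0.00125. Without pair 1 they were 0.0689 and 0.0628, and without pair 2 they were 0.105 and 0.145. When all symbols entered the background estimate, the differences were −0.14 for CYCS and 0.49 for BNIP1, and neither passed (limma adjusted p = 0.124 and 0.204). That estimate put the background mean above the median signal of every array.

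Of the 5 tested genes of the apoptosome and caspases, CYCS included, 0 were higher and 3 were lower in all pairs, with a list median of −0.27. CASP2, an initiator caspase, differed by −0.36 ± 0.28 (adjusted p = 0.328, limma), and CASP6, an effector caspase, by −0.24 ± 0.29 (adjusted p = 0.502, limma). Both were below their own control in each pair, and neither passed.

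Among inhibitors of apoptosis, 2 of the 5 tested genes were higher and 1 was lower in all pairs, with a list median of 0.33. BIRC3, the cIAP2 ubiquitin ligase and an NF-kB target, had log2 signals of 6.69, 6.97 and 8.67 in control and 7.87, 8.88 and 9.16 with sorafenib. It differed by 1.19 ± 0.71, or 2.28-fold, but did not pass (adjusted p = 0.129 in the paired fit and 0.0774 in the trended paired fit, limma). BIRC2, encoding cIAP1, was higher by 0.41, 0.32 and 0.21, and BIRC6 was lower on average by a difference of −0.23.

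Genes for turnover of MCL1 and NOXA had a median difference of −0.09 over 8 tested genes, with 1 higher and 3 lower in all pairs. USP9X, a deubiquitinase that stabilises MCL1, was lower by differences of −0.20, −1.08 and −0.64 in pairs 1, 2 and 3 (unadjusted p = 0.0192, adjusted p = 0.191, limma). FBXW7, part of a ubiquitin ligase that targets MCL1, differed by −0.27 ± 0.10, MARCHF5 (listed as MARCH5) by −0.08 ± 0.02 and BAG6 (listed as BAT3) by 0.22 ± 0.19. Mitochondrial death factors and outer membrane channels had a median of −0.24 over 7 tested genes, with 1 higher and 3 lower in all pairs. The channels VDAC1 and VDAC3 differed by −0.24 ± 0.09 and −0.35 ± 0.43, AIFM1, the apoptosis-inducing factor, by −0.27 ± 0.07, and DIABLO, which antagonises inhibitors of apoptosis, by 0.14 ± 0.13. None of these genes passed in the paired fit or in the trended one; limma's paired fit gave 1 turnover gene, USP9X, and 0 genes of the mitochondrial list an unadjusted p under 0.05.

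**Figure D5:**
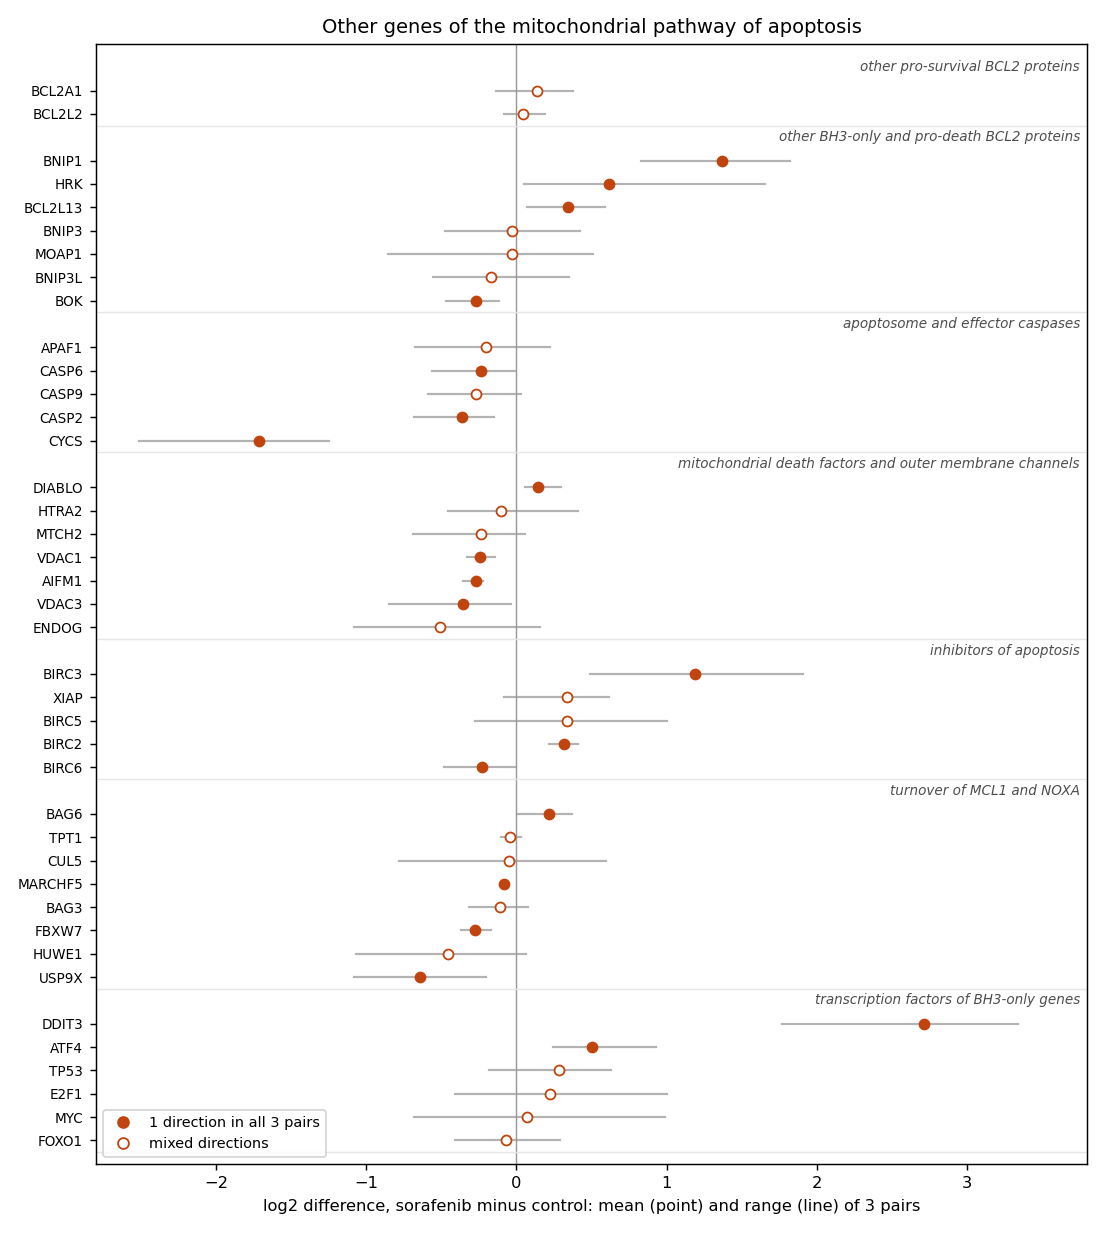
Log2 difference of sorafenib minus control (x axis) of the tested genes of 7 other lists of the mitochondrial pathway (y axis), with the mean of 3 pairs as a point and their range as a line. Filled points mark genes with 1 direction in all pairs; CYCS lies farthest left at −1.71 and DDIT3 farthest right at 2.71.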

How the data were processed

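The authors deposited signal intensity values, described as non-normalized, for 34690 symbols in 1 table per group, and, per the file headers, a detection p-value beside each. How probes of the same gene were merged into 1 value is not given in the sources used here, so splice forms cannot be told apart. Of the members, only BBC3 and BAK1 behaved as single probes, with p-values that were whole multiples of 1/770 on all arrays (tolerance 0.001). A deposited table of log2 values, per the file headers 1 column per sample, was filled for 59 symbols in each sorafenib column and was not used for comparisons.

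The tables were joined by symbol. Background was corrected by limma's normexp method (limma 3.58.1, R 4.3.3), using the detection p-values of 27247 single-probe symbols (mean 112 to 139 intensity units per array), with an offset of 16, followed by quantile normalization and log2. Symbols with detection p under 0.05 on at least 3 of 6 arrays were tested. Symbols that did not behave as single probes could miss this threshold at a high signal. RNF7 missed it at log2 signals of 11.28 to 12.03 and FOXO3 at 10.04 to 10.72, so untested genes were not all near background. A value with ± is the mean and SD of 3 pair differences; the paired fit is limma's linear model with empirical Bayes. The numbers were taken to pair the arrays because the labels number them 1 to 3 in each group. Deviations from the group means correlated at 0.904, 0.79 and 0.926 within numbers. These values cannot show that the pairing is right. Both arrays numbered 3 stand far from the rest, and correlations between numbers were not computed. Arrays number 3 per group, which limits the precision.

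All 10 members and up to 4 genes per other list with 1 direction in all pairs were named. The members, lists, background restriction and trended fit were chosen with earlier results of these data known. The motifs were chosen after the sequences were seen. Of the lists, 1 gene is not reported here.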

Additional observations from a re-analysis of the deposited data

How the results depend on the processing

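In none of the 12 other settings did a member pass the threshold (limma, adjusted over all symbols); the lowest adjusted p of PMAIP1 among them was 0.148. The count of called symbols was 0 in the main setting, 3 without background correction, 10 with array weights, 141 with the trended paired fit, and 0 to 271 when 1 pair was left out of the paired fit. Leaving out 1 pair moved the trended count to between 1 and 1283, and with all symbols in the background estimate it was 0 (both chosen after seeing the data). The fit with no replicate block called 0 symbols and 0 members, with 308 symbols at an unadjusted p under 0.05. The number of members with 1 direction in all pairs was 3 in the main setting, 6 with median scaling and 3 to 8 when 1 pair was left out, where only 2 pairs had to concur. The members' median was −0.15 over the 7 members detected on all 6 arrays and −0.18 to 0.11 when 1 pair was left out. The sign of MCL1 turned when all symbols entered the background estimate (−0.0056). Signs also turned when 1 pair was left out, with means of −0.18 to 0.24 for MCL1, −0.053 to 0.43 for BCL2L11, −0.24 to 0.0021 for BAX, −0.37 to 0.048 for BAK1 and −0.033 to 0.21 for BAD. The causes were not tested. Signals near background limit BAD on all arrays and BCL2 on those numbered 1 and 2. They also limit PMAIP1 on the arrays numbered 1 and BCL2L11 on those numbered 3.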
